A study of Astyanax mexicanus with 26 samples.

Results

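The H3K27ac peaks of Pachón cave fish liver were set against those of surface fish liver in the Mexican tetra, Astyanax mexicanus. The members are all peaks of the 2 deposited H3K27ac lists, 93527 of Pachón and 70089 of surface, together 163616 of the 833231 peaks in the 9 lists of the series. Overlapping or touching peaks of the 2 lists were merged into 104792 regions, each classed as Pachón only, surface only or both. The series profiled H3K27ac, H3K4me3 and H3K27me3 by chromatin immunoprecipitation and sequencing in adult livers of 3 morphs, the cave fish of Pachón and Tinaja and the river-dwelling surface fish. It holds 26 libraries, 6 of them total chromatin. The other 7 lists serve here as annotation.

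The Pachón list pools 2 H3K27ac libraries, numbered 1889 and 1934 in the labels, and both name the total chromatin library 1889 as background. The surface list pools 2 libraries that share the number 1930 and 1 total chromatin library of that number. Library number and morph therefore cannot be told apart. The labels do not say whether libraries of 1 number came from separate fish, and give neither sex, exact age nor feeding state. The labels name no treatment for either group. Each list holds positions of peaks and a score of 0 throughout, so the depth is unknown, no spread between libraries can be computed and no test between morphs was made. Intervals are exact Clopper-Pearson intervals at 95%, cover counting error only and take regions as independent, which neighbouring regions are not. The libraries are of liver by label; the lists carry no gene names, so that label was not checked against liver genes.

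H3K27ac is an acetyl group that acetyltransferases such as p300 and CBP place on lysine 27 of histone H3 at active promoters and enhancers. The same lysine can instead be trimethylated by Polycomb repressive complex 2, giving H3K27me3, so a single histone tail cannot carry both. H3K4me3 marks promoters, and H3K27ac without it is the pattern used to recognise active enhancers. Cave populations of this species live with little food, and the liver, which stores glycogen and fat, has been studied for that reason.

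Most H3K27ac regions were found in both morphs, and the regions found in one morph were narrow. Both morphs held a peak at 55860 regions, or 53.3% of all. Pachón only held 36022 regions, 34.4% of all, and surface only held 12910, 12.3% of all. The Pachón list was 1.33 times as long as the surface list and covered 1.24 times as many bases, 54.3 Mb against 43.7 Mb. Of the Pachón peaks, 61.5% met a surface peak (61.2 to 61.8), and of the surface peaks 81.6% met a Pachón peak (81.3 to 81.9). Median widths were 369 bp for Pachón-only regions, 360 bp for surface-only regions and 653 bp for regions of both. Regions of both are merged from peaks of both lists, which by itself widens them. Single Pachón peaks had a median of 576 bp where they met a surface peak and 369 bp where they did not. For surface peaks these medians were 562 and 360 bp. Pachón-only regions covered 15.1 Mb and surface-only regions 5.28 Mb, against 42.9 Mb for regions of both.

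Lists of equal length must give one-morph classes of nearly equal size where peaks meet almost one to one. In the full lists they did so, with 57502 Pachón and 57177 surface peaks that had a partner. The sizes below therefore describe the cut and are no result. The 70089 widest Pachón peaks were kept, which left out 23438 peaks and set a narrowest kept width of 350 bp. Pachón only then held 20373 regions (22.9%), surface only 20109 (22.6%) and both 48665 (54.6%). The cut puts narrow peaks at a disadvantage in the Pachón list alone. Of the 20109 surface-only regions it gave, 7199 (35.8%) met one of the Pachón peaks that had been left out, and the other 12910 met no Pachón peak at all. The median width of the classes then differed, at 459 bp for Pachón only and 355 bp for surface only.

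A comparison by rank left both lists whole on the side being searched. Among the 1000 widest peaks of each list, 31 Pachón peaks had no partner anywhere in the surface list and 4 surface peaks had none in the Pachón list. Among the 10000 widest, 590 Pachón peaks (5.90%, 5.45 to 6.38) and 228 surface peaks (2.28%, 2.00 to 2.59) had none. Among the 70089 widest, which is the whole surface list, the numbers were 20376 (29.1%) and 12912 (18.4%). Peaks without a partner thus occurred at every width, became more frequent with falling width, and were more frequent in the Pachón list at each of the ranks compared. The longer Pachón list offers more chances of a partner to a surface peak, and the part of list length in this difference was not tested.

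**Figure D1:**
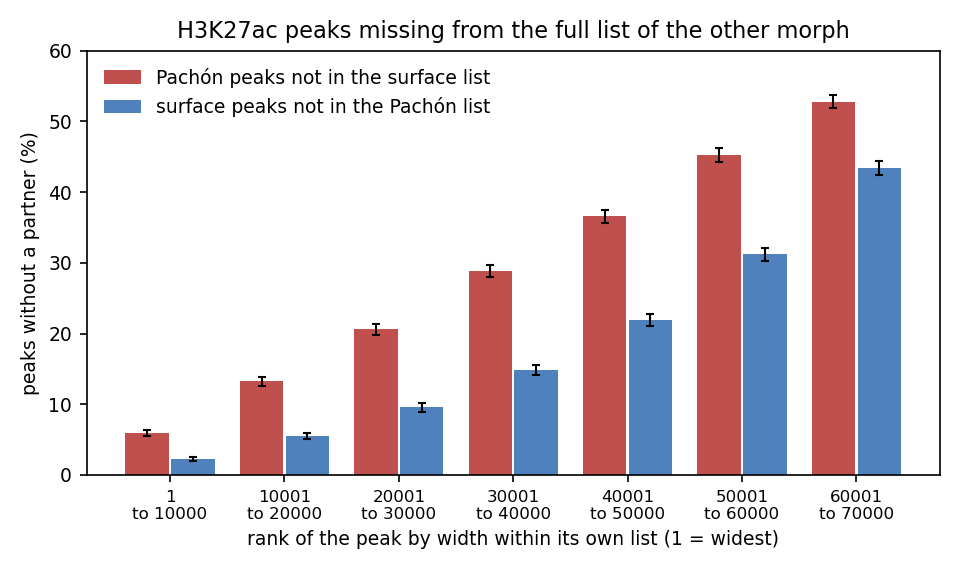
Share of H3K27ac peaks without a partner in the full list of the other morph (y axis, percent), for bins of 10000 peaks ranked by width within their own list (x axis, widest at the left); red bars are Pachón peaks, blue bars surface peaks, and error bars are exact 95% intervals of the counts. The Pachón share runs from 5.90% in the widest bin to 52.8% in the narrowest shown, the surface share from 2.28% to 43.4%, and the Pachón bar is the taller in all 7 bins.

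At regions of both morphs, H3K27ac peaks had much the same extent. The median was 590 bp under Pachón peaks and 572 bp under surface peaks, and the median ratio of Pachón to surface bases was 1.02 (quartiles 0.90 and 1.17). Pachón peaks covered more bases at 30653 regions and surface peaks at 24971, with 236 equal. A difference of 2 times or more was rare. It favoured Pachón at 1352 regions (2.42%) and surface at 1049 (1.88%), while 95.7% of regions were under 2 times apart.

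**Figure D2:**
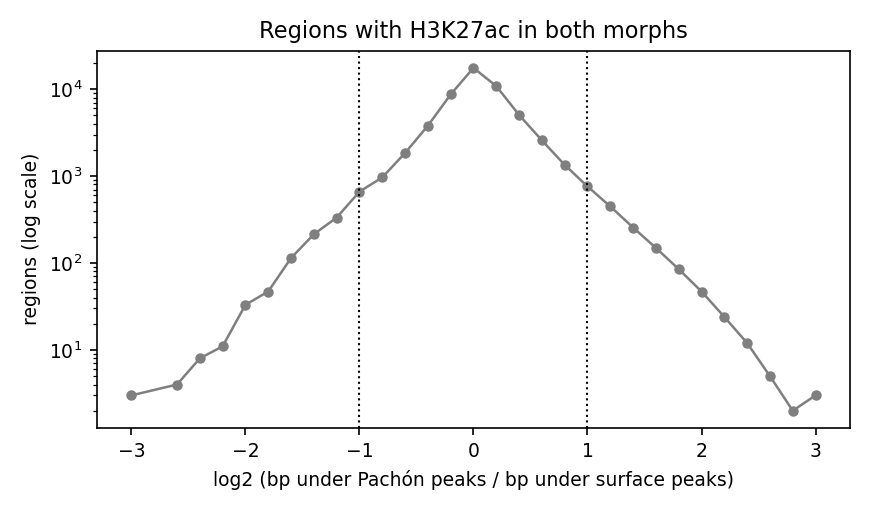
Number of regions with H3K27ac in both morphs (y axis, log scale) by the log2 ratio of bases under Pachón peaks to bases under surface peaks (x axis, bins of 0.2, the outermost points also holding ratios beyond the axis and a bin without regions left out); dotted lines mark a difference of 2 times. The curve peaks at a ratio near 1, and 1352 regions lie at or beyond the right line and 1049 at or beyond the left line.

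Taken over all widths, H3K4me3, the promoter mark, was less frequent at one-morph H3K27ac regions than at regions of both, which were wider. Between the Pachón and surface lists, H3K4me3 at one-morph regions followed the morph with H3K27ac. Among regions of both, 45.1% met a Pachón H3K4me3 peak and 44.0% a surface one. Pachón-only regions met a Pachón H3K4me3 peak at 18.1% (17.7 to 18.5) and a surface one at 9.82% (9.51 to 10.1). Surface-only regions met a Pachón H3K4me3 peak at 8.82% (8.34 to 9.33) and a surface one at 17.7% (17.1 to 18.4). Over all 104792 regions the shares were 31.3% and 29.0%. Counted by direction, 3949 Pachón-only regions carried H3K4me3 in the Pachón list alone and 968 in the surface list alone, a ratio of 4.08. Surface-only regions had 276 and 1424, a ratio of 0.19, and regions of both 3669 and 3101, a ratio of 1.18. The H3K4me3 and H3K27ac libraries of a morph share library numbers, so a shared source for this direction cannot be told apart from the morph.

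Enhancer-like regions, with H3K27ac and no H3K4me3 in any morph, made up 60.3% of Pachón-only regions, 69.1% of surface-only regions and 36.2% of regions of both. They numbered 21723, 8923 and 20238. In width they stood at medians of 346, 345 and 527 bp. The definition leans on the Tinaja H3K4me3 list, which held 136219 peaks, against 64432 in Pachón and 56323 in surface. With the Pachón and surface H3K4me3 lists alone, 79.2% of Pachón-only and 80.1% of surface-only regions had no H3K4me3. Among regions of both this share was 49.4%, so the one-morph classes then stood close together. Wider one-morph regions carried H3K4me3 more often. Of Pachón-only regions of 200 to 299 bp, 9.23% met Pachón H3K4me3, against 50.4% of those of 1000 bp and more. Surface-only regions of the same widths met surface H3K4me3 at 9.16% and 40.0%, so the share with H3K4me3 was higher among wide regions in both classes. At 400 to 599 bp, Pachón H3K4me3 met 22.9% of Pachón-only regions and 31.4% of regions of both. At 300 to 399 bp these shares were closer, at 14.1% and 16.9%, and at 200 to 299 bp they were 9.23% and 11.1%. Surface H3K4me3 met 22.4% of surface-only regions and 29.8% of regions of both at 400 to 599 bp. In the narrower bins there was no such gap, at 15.3% and 15.1% for 300 to 399 bp and 9.16% and 9.41% for 200 to 299 bp.

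**Figure D3:**
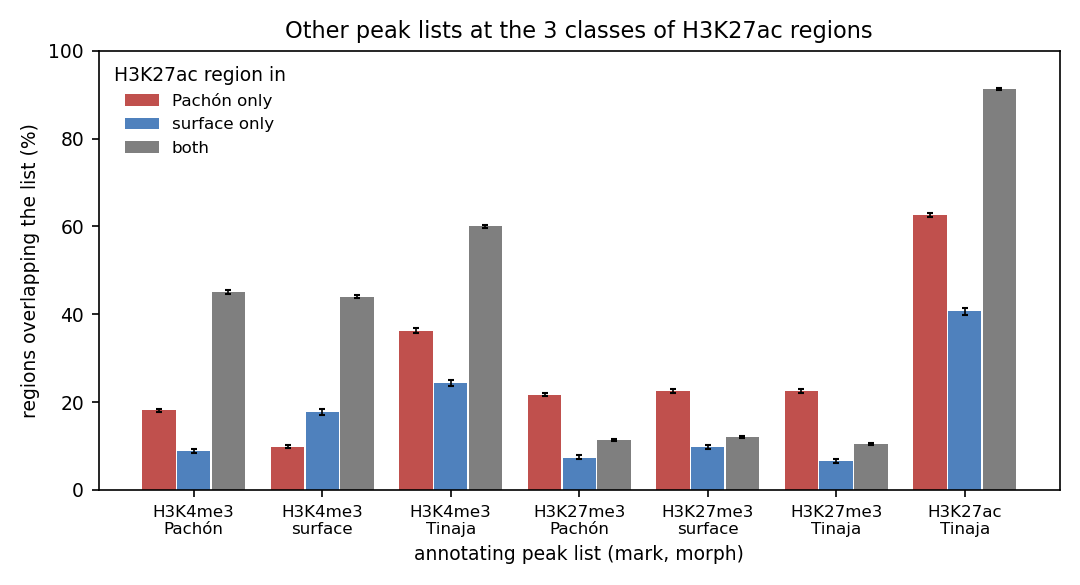
Share of H3K27ac regions that overlap each of the 7 annotating lists (y axis, percent; x axis, mark and morph of the list), for regions in Pachón only (red), surface only (blue) and both (grey); error bars are exact 95% intervals. Regions of both stand highest for the H3K4me3 lists and Tinaja H3K27ac, whereas Pachón-only regions stand highest for the 3 H3K27me3 lists, at 21.7% to 22.6%.

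H3K27me3, the Polycomb mark, was frequent at Pachón-only H3K27ac regions whichever morph's list was used. Pachón-only regions met H3K27me3 of Pachón at 21.7% (21.3 to 22.2), of surface at 22.6% (22.2 to 23.03) and of Tinaja at 22.6% (22.2 to 23.04). Surface-only regions did so at 7.38% (6.94 to 7.85), 9.73% (9.22 to 10.3) and 6.66% (6.24 to 7.11). Regions of both stood at 11.3%, 11.99% and 10.5%, and all regions together at 14.4%, 15.4% and 14.2%. With lists of equal length, Pachón-only regions met surface H3K27me3 at 28.7% and surface-only regions met Pachón H3K27me3 at 6.48%. That cut left Pachón-only regions wider, at a median of 459 bp against 355 bp for surface only. Among its 20109 surface-only regions, 7199 met a Pachón H3K27ac peak that had been left out. Wider Pachón-only regions met H3K27me3 more often, and the part of the cut in this contrast was not tested. The H3K27me3 libraries share no number with the H3K27ac libraries. Those of all 3 morphs have the number 2399, so the part of that number in the likeness of the 3 lists cannot be told apart.

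The excess was present at each width. Of Pachón-only regions of 200 to 299 bp, 12.5% met surface H3K27me3, against 7.34% of surface-only regions and 4.49% of regions of both. At 400 to 599 bp the shares were 27.8%, 10.7% and 12.2%. At 1000 bp and more they were 51.2% (46.8 to 55.5, 518 regions), 14.2% (190 regions) and 11.5% (10.9 to 12.1, 11414 regions). It was present with and without the promoter mark. Where no morph had H3K4me3, surface H3K27me3 met 11.03% of Pachón-only, 4.15% of surface-only and 4.30% of regions of both. Where some morph had it, the shares were 40.2%, 22.2% and 16.4%.

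**Figure D4:**
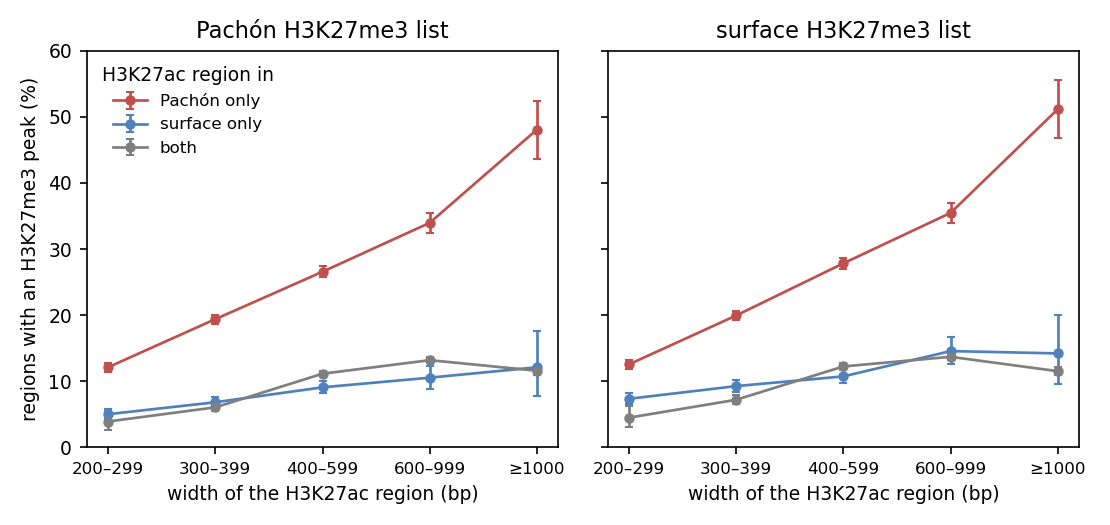
Share of H3K27ac regions with an H3K27me3 peak (y axis, percent) by width of the region (x axis, 5 bins in bp), for the Pachón H3K27me3 list (left) and the surface H3K27me3 list (right); red, blue and grey points are regions in Pachón only, surface only and both, with exact 95% intervals. The red points lie above the others in every bin and reach 48.1% and 51.2% in the widest, while blue and grey stay between 3.91% and 14.6%.

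At Pachón-only regions, H3K27me3 in one list alone was somewhat more often in surface, but less so than in either other class. Both other classes hold surface H3K27ac, so neither is a baseline free of it. The whole H3K27me3 lists were of like length, with 98198 peaks in Pachón and 97948 in surface. Of the Pachón-only regions, 5942 met H3K27me3 in both morphs, 1883 in the Pachón list alone and 2198 in the surface list alone, a ratio of 0.86. At regions of both the one-list numbers were 1355 and 1714, a ratio of 0.79. At surface-only regions they were 273 and 576, a ratio of 0.47, so there H3K27me3 in one list alone was more often in surface, the morph with H3K27ac. Peaks of pooled liver libraries do not show whether both marks lay on the same nucleosomes or in the same cells. Of the Pachón-only regions, 69.2% carried H3K27ac as the sole mark in Pachón. Another 9.12% had H3K4me3 too, 12.8% H3K27me3, and 8.97% all 3 marks. In surface, 72.3% of these regions carried no peak of the 3 marks, 17.9% H3K27me3 alone, 5.12% H3K4me3 alone and 4.69% both. Of the surface-only regions, 86.1% carried none of the marks in Pachón and 77.1% carried H3K27ac as the sole mark in surface.

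The regions of both with unequal extent showed the same order. Of the 1352 regions at least 2 times wider in Pachón, 26.6% met surface H3K27me3 (24.3 to 29.1), and 24.2% met Pachón H3K27me3. Of the 1049 at least 2 times wider in surface, 7.72% met surface H3K27me3 (6.18 to 9.51) and 6.48% Pachón H3K27me3. Regions under 2 times apart stood between them, at 11.7% and 11.1%. The median widths of the 2 unequal groups were close, at 850.5 bp for those wider in Pachón and 865 bp for those wider in surface.

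The list of Tinaja, the other cave morph, pools 3 libraries and held 117125 H3K27ac peaks. One of those libraries has the number 1934, as does a Pachón library, and none has the surface number 1930, so a closer likeness by library number cannot be told apart from one by morph. It met 62.6% of Pachón-only regions (62.1 to 63.1), 40.7% of surface-only regions (39.8 to 41.5) and 91.4% of regions of both, against 75.2% over all regions. The order between Pachón only and surface only was present in each of the 5 width bins, for example at 44.5% and 30.4% at 200 to 299 bp and at 79.8% and 53.0% at 600 to 999 bp. Pachón-only regions that Tinaja shared met surface H3K27me3 at 27.5%, and those it lacked at 14.3%. For surface-only regions these shares were 12.9% and 7.53%. The shared regions were wider, with medians of 397 against 331 bp for Pachón only and 382 against 347 bp for surface only.

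The widest Pachón-only regions on placed chromosomes lay in H3K27me3 and H3K4me3 of Pachón. The deposited lists hold no total chromatin signal, so background at these and the other named regions was not tested. Positions are 1-based and come from the deposited lists, whose genome build neither labels nor headers name, and no gene was assigned to them. On chromosome 14, from 20875157 to 20880478, a Pachón peak of 5322 bp was covered by H3K27me3 over 99.4% in Pachón, 93.1% in surface and 97.9% in Tinaja. H3K4me3 covered 100% of it in Pachón, 74.0% in surface and 78.5% in Tinaja, and the nearest surface H3K27ac peak lay 34403 bp away. On chromosome 23, from 4240877 to 4243641, H3K27me3 covered 100% of the region in every morph, and H3K27ac was listed in Pachón alone. On chromosome 16, from 10098107 to 10100747, H3K27me3 covered 99.3%, 94.0% and 98.5% in Pachón, surface and Tinaja.

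On chromosome 9, from 24563828 to 24566488, the other marks differed as well. H3K4me3 covered 90.6% of these 2661 bp in Pachón and 88.0% in Tinaja, and 0% in surface. H3K27me3 covered 77.0% in Pachón, 23.5% in surface and 95.6% in Tinaja. A surface H3K27ac peak lay 215 bp from this region, against 12655 and 10269 bp for the regions on chromosomes 23 and 16. Unplaced scaffolds were frequent among the 31 Pachón peaks without a partner in the 1000 widest, of which 15 lay on placed chromosomes (48.4%), against 754 of the 969 with a partner (77.8%). Of the 31, 29 met Pachón H3K27me3, 27 surface H3K27me3 and 27 Pachón H3K4me3. The 969 with a partner met Pachón H3K27me3 at 13.6%. The part of scaffold sequence in these wide peaks was not tested. On placed chromosomes alone, 21.9% of Pachón-only regions met surface H3K27me3 and 7.00% of surface-only regions met Pachón H3K27me3.

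The widest surface-only regions carried fewer marks in Pachón. On chromosome 24, from 44031268 to 44033904, Pachón had no peak of the 3 marks, while a surface H3K27ac peak of 2637 bp was covered over 99.8% by surface H3K27me3 and over 89.0% by surface H3K4me3. Tinaja had H3K4me3 over 10.9% of it. On chromosome 10, from 5211058 to 5213361, H3K27ac was the sole mark in any morph, at 0% of the region in Pachón, 100% in surface and 27.9% in Tinaja. The region on chromosome 3, from 38041716 to 38043819, had 0% for every Pachón list, with surface H3K4me3 over 52.7% and Tinaja H3K27ac over 40.1%. On chromosome 2, from 4506407 to 4508250, Pachón again had no mark, and Tinaja H3K27ac covered 58.4%. At 3 of these 4 regions a Pachón H3K27ac peak lay within 1 kb, at 998, 927 and 723 bp.

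Among regions of both, the largest excess of Pachón bases was on chromosome 11, from 4410196 to 4412522. Pachón peaks covered 2327 bp, surface peaks 277 bp and Tinaja peaks 1935 bp, with no H3K27me3 in any morph. On chromosome 14, from 17788768 to 17791103, Pachón, surface and Tinaja peaks covered 2336, 287 and 1925 bp. On chromosome 4, from 6403464 to 6405958, they were 2495, 600 and 2316 bp, with H3K27me3 over 78.9% in Pachón and 74.4% in surface. On chromosome 6, from 45666342 to 45670530, they were 4189, 2402 and 2177 bp, so there Tinaja stood nearer to surface.

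The largest excess of surface bases was on chromosome 7, from 15486983 to 15491403. Pachón peaks covered 1199 bp, surface peaks 4421 bp and Tinaja peaks 2773 bp, whereas H3K4me3 was of like extent, at 1919, 2103 and 2003 bp. On chromosome 1, from 936464 to 938602, Pachón had 224 bp of H3K27ac and no other mark. Surface had 2139 bp there, with H3K4me3 over 82.0% and H3K27me3 over 50.6%. On chromosome 22, from 26802681 to 26805383, Pachón, surface and Tinaja peaks covered 835, 2703 and 576 bp, and on chromosome 11, from 2089007 to 2091481, 643, 2475 and 1708 bp. H3K27ac was the sole mark of Pachón and surface at these last 2 regions.

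Pachón-only regions lay farther from regions of both than surface-only regions did, and in longer unbroken series. Distances were taken over 35373 Pachón-only and 12713 surface-only regions, leaving out 649 and 197 on sequences without a region of both. The median distance to the nearest region of both was 4206 bp (quartiles 1354 and 13710) for Pachón only and 2366 bp (760 and 8317) for surface only. Within 1 kb of a region of both lay 19.03% of these Pachón-only and 30.6% of these surface-only regions. With lists of equal length the medians were 5128 and 2371 bp. Series of 5 or more adjoining regions of 1 class held 21.3% of Pachón-only, 5.79% of surface-only and 36.2% of regions of both. The classes differ in their number of regions, whose part in the length of series was not tested.

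The longest series of regions of both had 29 in a row. Among Pachón-only regions the longest had 22, on 3 chromosomes. On chromosome 20 it ran from 7516741 to 7584275 and held 10.4 kb of Pachón H3K27ac, with 0.722 kb of H3K27me3 in Pachón and 2.74 kb in surface. On chromosome 18, from 25251358 to 25377838, H3K27me3 was dense in every morph, at 11.5 kb in Pachón, 10.7 kb in surface and 14.6 kb in Tinaja, beside 11.5 kb of Pachón H3K27ac. On chromosome 10, from 6279915 to 6760523, the Pachón H3K27ac peaks were spread over 480.6 kb, with 9.94 kb of H3K27me3 in Pachón and 6.30 kb in surface. The 3 series thus differed in which morph held more H3K27me3. The longest surface-only series on a placed chromosome had 14 regions, on chromosome 19 from 11059138 to 11125684, with 9.72 kb of surface H3K27ac. H3K27me3 there covered 7.72 kb in Pachón and 4.89 kb in surface.

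Windows of 100 kb were ranked by how far 1 class exceeded its overall share, 34.4% for Pachón only and 12.3% for surface only. Their class counts and H3K27ac contrasts follow from that ranking and are no result. The window with the largest excess of Pachón-only regions, on chromosome 16 from 11000001 to 11100000, held 32 of them among 47 regions, and 0 surface-only regions. It had 47 H3K27ac peaks in Pachón, 15 in surface and 40 in Tinaja, and 5 H3K27me3 peaks in Pachón and 5 in surface. On chromosome 20, from 7500001 to 7600000, 27 of 33 regions were Pachón only. H3K27ac covered 18.7 kb in Pachón and 3.93 kb in surface, and H3K27me3 covered 0.729 kb in Pachón and 5.07 kb in surface. On chromosome 10, from 6200001 to 6300000, 27 of 34 were Pachón only, with 0.814 kb of H3K27me3 in Pachón and 3.55 kb in surface. On chromosome 6, from 24800001 to 24900000, 24 of 26 were Pachón only, with 2.98 kb of H3K27me3 in Pachón and 3.95 kb in surface.

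The 2 windows with the largest excess of surface-only regions adjoined each other on chromosome 7, from 15300001 to 15500000, and enclosed the region with the largest excess of surface bases. They held 25 surface-only regions of 37 and 23 of 35. H3K27ac covered 7.76 and 7.21 kb in Pachón, against 25.6 and 22.9 kb in surface and 21.4 and 16.4 kb in Tinaja. No morph had an H3K27me3 peak in either window. H3K4me3 differed less, at 3.08 and 7.99 kb in Pachón and 4.17 and 6.15 kb in surface. On chromosome 17, from 6800001 to 6900000, 15 of 20 regions were surface only, and on chromosome 10, from 25600001 to 25700000, 16 of 33.

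**Figure D5:**
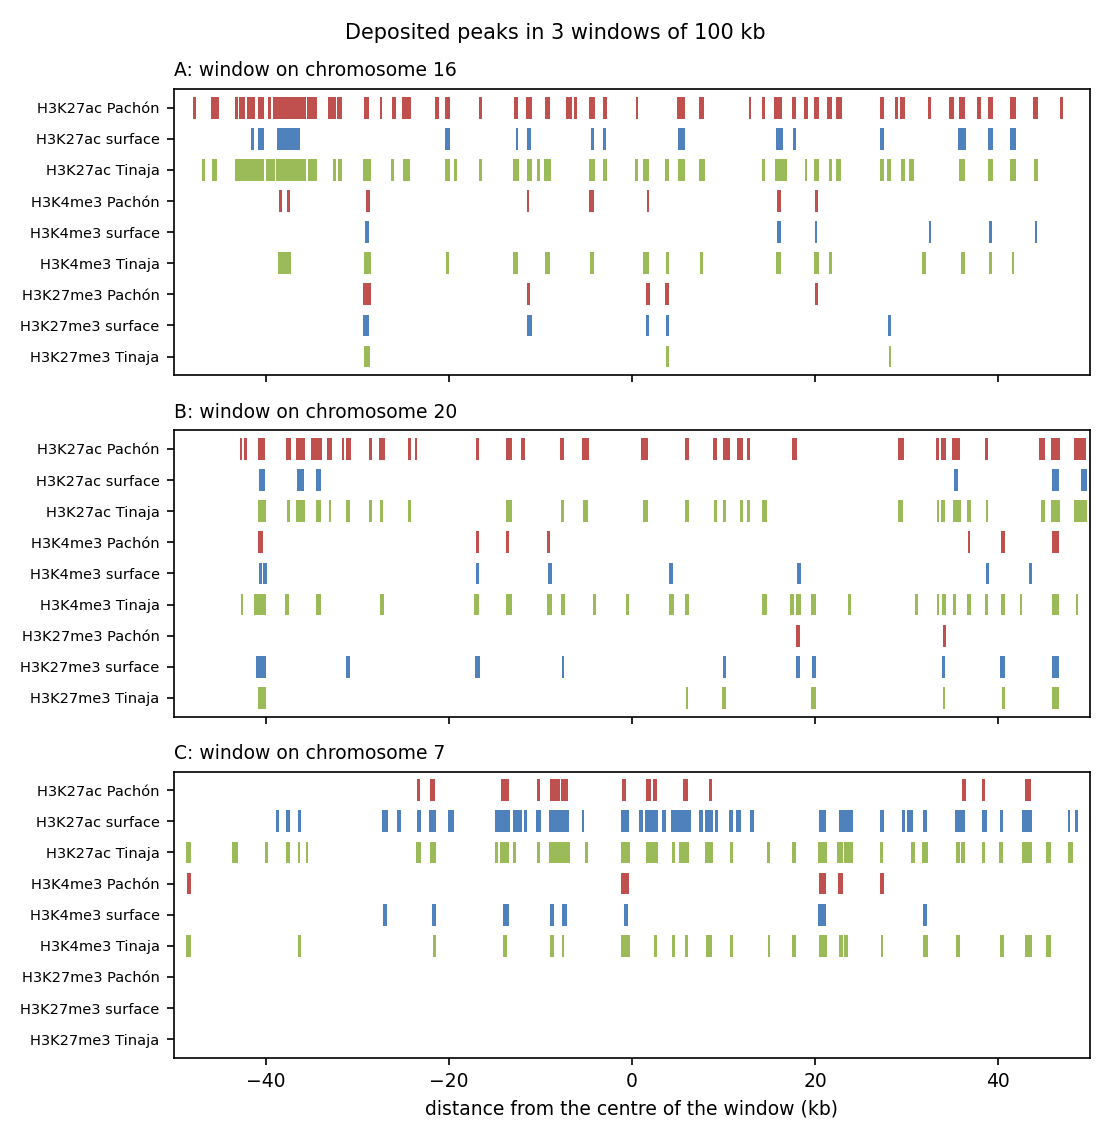
Deposited peaks of the 9 lists (rows: mark and morph; red Pachón, blue surface, green Tinaja) in 3 windows of 100 kb, with distance from the window's centre in kb on the x axis and each bar drawn to scale. Windows A and B, on chromosomes 16 and 20, hold 47 and 33 Pachón H3K27ac peaks against 15 and 6 of surface; window C, on chromosome 7, holds 14 Pachón peaks against 37 of surface, and no H3K27me3 peak.

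Over wider sets of windows the H3K27me3 difference was small. In the 100 windows with the largest excess of Pachón-only regions, H3K27me3 covered 401.1 kb in Pachón and 484.7 kb in surface, a ratio of 0.83. Pachón had fewer H3K27me3 bases than surface in 65 of them, against 58.5% of all 5045 windows with 5 or more regions, and more in 34, against 39.8%. Over all those windows the ratio was 0.93. In the 100 windows of surface only it was 0.95, with fewer bases in Pachón in 53. H3K4me3 went with H3K27ac in these sets, at a ratio of 1.40 in the windows of Pachón only and 0.89 in those of surface only, against 1.14 over all windows.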

How the data were processed

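Adult livers were profiled by chromatin immunoprecipitation and 50-bp single-read sequencing, per the labels' protocols. Among the tools, MACS2, Bowtie2, SAMtools and bcl2fastq 2.20 are named, per the submitters' processing notes. No label or header gives their settings, the genome build or how libraries were pooled. The authors deposited 1 list per morph and mark with the start and end of each peak (other columns hold no measurement), and the deposited score is 0 for every peak. Reads were not analysed here, and the depth is unknown. The RefSeq genes used for comparison belong to AstMex3_surface, whose chromosome lengths differ from the lists' (last gene on chromosome 1 at 134.0 Mb, last peak at 26.95 Mb), so no gene or sequence is given.

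Peaks of the 2 lists were merged where they overlapped or touched. Overlap meant 1 bp or more. Width stood in for strength, with ties in file order. Alternatives were equal length, the wider 50% of each list, overlap of 50% of the shorter peak, merging up to 1 kb and placed chromosomes (25). Regions without H3K4me3 were an alternative added after the data were seen. The members, lists and comparisons were chosen with earlier results of these data known. Named regions were the 4 widest of each one-morph class on placed chromosomes and the 4 regions of both with the largest excess in each direction. Named windows were, for either one-morph class, the 4 whose count most exceeded that share of the window's regions which the class holds overall. Other series and peaks named were chosen after their values were seen. The interval tools were tested on 50 simulated sets against base by base counting, with 0 mismatches. Computation used SciPy 1.17.1 and NumPy 2.4.6 under Python 3.11.15, with plots from Matplotlib 3.10.9.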

Additional observations from a re-analysis of the deposited data

How the results depend on the processing

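Each list pools libraries, so leaving out a library was not possible and no spread between libraries bears on any value. Width is the sole ranking the lists allow. With lists of equal length there were 20373 Pachón-only and 20109 surface-only regions, and with the wider 50% of each list 17337, 5776 and, for both, 28891. Merging peaks up to 1 kb apart gave 7451 surface-only regions. The share of Pachón-only regions with Pachón H3K4me3 was 23.9% with equal length, 33.7% with the wider 50%, 19.9% with merging and 15.9% on placed chromosomes. That of surface-only regions with surface H3K4me3 was 30.02%, 20.8% and 16.6% under the last 3 of these. Surface H3K27me3 met 28.7%, 27.7%, 27.7% and 21.9% of Pachón-only regions under the 4 settings in that order, and 11.03% of those without H3K4me3 in any morph. Pachón H3K27me3 met 6.48%, 8.31% and 10.7% of surface-only regions with equal length, the wider 50% and merging, and 2.63% of those without H3K4me3. Tinaja H3K27ac met 72.2%, 84.4% and 65.2% of Pachón-only regions under those 3 settings, and 51.2%, 70.2% and 44.8% of surface-only regions, with 39.7% on placed chromosomes. In each of these settings H3K27me3 of the other morph was more frequent at Pachón-only than at surface-only regions. Tinaja H3K27ac was so too, except that it was not computed for regions without H3K4me3. The order of the H3K4me3 shares changed with the setting. Pachón-only regions stood above surface-only ones with the full lists (18.1% against 17.7%), equal length and the wider 50%, and below them with merging and on placed chromosomes. Overlap of 50% of the shorter peak moved no value beyond its interval or by 1.5 times.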

Other observations

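The share of one-morph regions varied little between chromosomes. Pachón-only regions were 284 of the 1052 H3K27ac regions on chromosome 11, and made up 37.5% on chromosome 18, the lowest and highest of the 25. Surface-only regions made up 10.7% on chromosome 12 and 15.97% on chromosome 11. Chromosome 11 thus had both the lowest Pachón-only and the highest surface-only share, and the fewest regions of any chromosome. Regions of both ran from 48.7% on chromosome 10 to 57.03% on chromosome 11.

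Unplaced scaffolds held 25626 regions, of which 34.9% were Pachón only and 12.9% surface only, close to the shares of the whole. H3K27ac peaks were listed on 1479 unplaced scaffolds in Pachón and 1236 in surface, and 1165 scaffolds were in both lists. Those in Pachón and not in surface were 314, with 523 of the 93527 Pachón peaks. Those in surface and not in Pachón were 71, with 101 of the 70089 surface peaks. The part of list length in this difference was not tested.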
